A study of Mus with 5 samples.

Results

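Krüppel-like factors (KLFs) and 2 regulators of lymphocyte exit from lymphoid tissue were examined for the binding of retinoic acid receptor alpha (RARα) and of BATF in mouse CD8 T cells. The 8 genes were Klf2, Klf3, Klf4, Klf6, Klf7, Klf13, S1pr1 and Cd69. A peak was counted for a gene when the authors' annotation listed that gene among those near the peak, and 95 of the 27480 peaks in 4 lists met this rule. Binding had been measured by chromatin immunoprecipitation followed by sequencing (ChIP-seq), in which an antibody recovers the DNA fragments a protein is attached to and places with many fragments are called as peaks. Wild-type splenic CD8 T cells, which the labels call naive, had been activated for 24 h with antibodies to CD3 and CD28 plus IL-2, and rested for 24 h in IL-2 at 100 U/ml. They were then kept for 1 h either without added RA (control) or with 50 nM RA, the vitamin A metabolite that RARα binds. The treatment labels name IL-7, IL-8, IL-9 or IL-10 for different samples in place of the IL-2 of the protocol. Each list came from 2 pooled ChIP alignment files set against 1 file from normal rabbit IgG, the same file for all 4 lists, and the labels do not say whether the IgG cells had received RA. Whether the pooled files were separate samples is not stated, so there was 1 list per condition, no spread between replicates and no test between conditions, and every comparison compares those pools rather than the conditions.

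KLF proteins are zinc finger transcription factors that bind GC-rich and CACCC-type DNA elements. KLF2 is high in naive and resting memory T cells, where it maintains the gene for the egress receptor S1PR1, and it is lowered when the T cell receptor is engaged. S1PR1 senses the lipid sphingosine 1-phosphate and guides T cells out of lymph nodes, whereas CD69, an early activation antigen, binds S1PR1 and removes it from the cell surface. BATF is an AP-1 family factor of activated T cells, and RARα is a nuclear receptor whose activity depends on RA.

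All 8 genes had at least 1 BATF peak in both BATF lists, 5 of 8 had a RARα peak in the control list, and none had one with RA. The control lists gave 9 RARα peaks and 54 BATF peaks for the 8 genes, against 0 and 32 with RA. Of 21900 coding genes, 7.18% were named for a peak of the RARα control list, 3.19% for the RARα RA list, 48.6% for the BATF control list and 38.2% for the BATF RA list. Sequencing depth was nearly equal for RARα, at 22655611 fragments in the control pool and 22475060 in the RA pool. For BATF it was 23110180 in the control pool and 16424269 in the RA pool, which is 71.1% of the control.

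**Figure D1:**
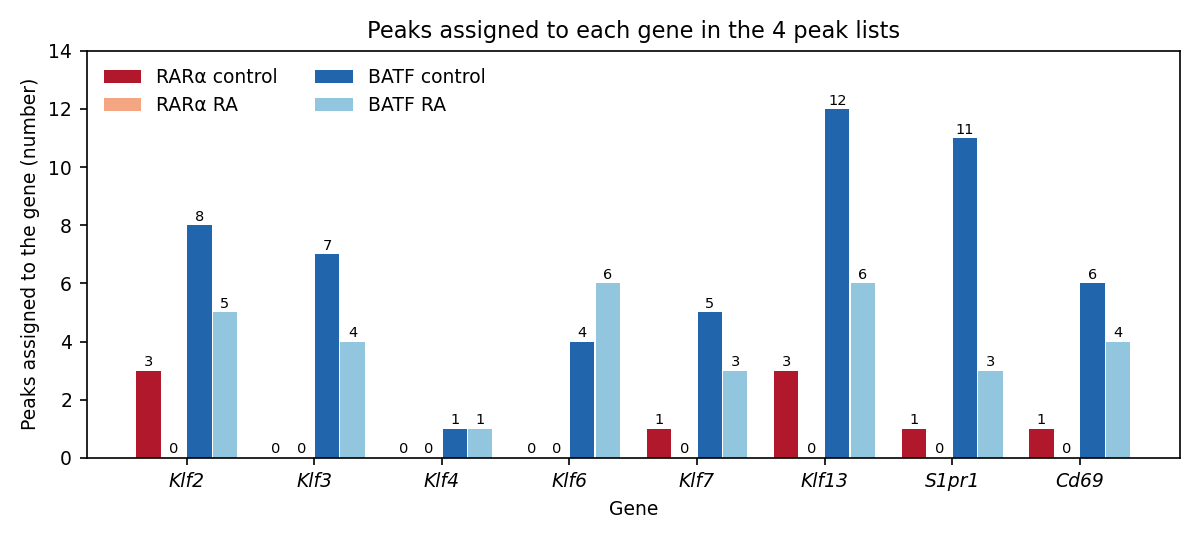
The number of peaks assigned to each gene (vertical axis) in each of the 4 lists (bar colours), with the number above each bar. Klf13 and S1pr1 had the most BATF control peaks, 12 and 11, and the RARα RA bar is at 0 for every gene.

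Among the KLF genes, Klf13, whose product is known for driving the chemokine RANTES (Ccl5) in T cells, had the most BATF peaks in the control list, with 12, and 0.292% of coding genes had at least as many. Klf2 had 8, Klf3, which encodes a CtBP-recruiting repressor, had 7, Klf7 had 5, Klf6 had 4 and Klf4 had 1. S1pr1 had 11, a number that 0.416% of coding genes reached, and Cd69 had 6. The counts include intergenic peaks, 7 for Klf13 and 6 for S1pr1, and 5 peaks of each of these genes lay within 10 kb of the gene body. They thus depend on how far from a gene a peak may be assigned, and both percentages are over all coding genes, with or without a peak. With RA the counts were 6 for Klf13, 5 for Klf2, 4 for Klf3, 3 for Klf7, 6 for Klf6, 1 for Klf4, 3 for S1pr1 and 4 for Cd69. S1pr1 therefore went from 11 to 3 peaks, while Klf6 went from 4 to 6. The Klf6 increase came with wide control peaks that were replaced by narrower ones. A control peak of 3353 bp over the start of Klf6 corresponded to RA peaks of 367, 274 and 464 bp, and a control peak of 2278 bp upstream of it corresponded to RA peaks of 970 and 441 bp. A count of peaks is therefore not a count of sites.

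RARα binding in the control list was found at Klf2, Klf13, Klf7, S1pr1 and Cd69 and lay away from the gene bodies. All 9 RARα peaks were classed as intergenic, compared with 43.8% of the 1172 peaks in that list, and none as promoter, compared with 19.5%. With 9 peaks, the Wilson 95% confidence interval for the promoter share reached up to 29.9%, which holds the share of the whole list. The peaks lay 9254 to 45324 bp from the gene, with a median of 35050 bp. Positions are on mm10, and upstream or downstream was read from the transcription start that the annotated promoter peaks gave for each gene except Klf4. In the annotation, 8 of the 9 peaks were listed with other genes too, so a peak may belong to a neighbour. An intergenic peak was counted for each gene named for it, so selection by gene name favours that class. The class shares of the whole list are therefore not a like baseline for these 9 peaks. Fold enrichment, which is the number of fragments at the summit plus 1 divided by the local IgG level plus 1, ranged from 2.58 to 7.93 with a median of 3.52, and the median of the list was 3.09.

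Klf2 had the strongest RARα peak of the 8 genes. It lay 9.28 kb downstream of the gene, on chromosome 8 from 72330933 to 72331719, with 62 fragments at the summit and a fold enrichment of 7.93, and it ranked 28 of 1172 in the list. Its nearest coding gene was Eps15l1, at 9271 bp, with Klf2 almost equally close at 9279 bp. A pair of further RARα peaks lay upstream of Klf2, each listed with 7 genes. Ap1m1 was nearer to both than Klf2 was, at 19978 and 21548 bp. The one from 72277364 to 72277616, 41.4 kb upstream, had 28 fragments and a fold enrichment of 6.12. The one from 72278934 to 72279516, 39.5 kb upstream, had 35 fragments and a fold enrichment of 4.53. A RARα control peak that the annotation gave to Eps15l1, in an intron 32411 bp from Klf2, had 34 fragments and a fold enrichment of 5.11, and it was not counted for Klf2.

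Klf13 had 3 RARα peaks, all upstream on chromosome 7. The one 45.3 kb upstream, from 63984239 to 63984956, had 25 fragments and a fold enrichment of 5.22. The one 34.4 kb upstream, from 63973357 to 63973678, had 20 fragments at 3.52-fold, and was annotated as a B3 SINE repeat. The third, 35.05 kb upstream from 63973965 to 63974200, had 9 fragments at 2.58-fold, the lowest fold of the 9. Klf13 therefore had both a peak in the upper part of the list and one close to the calling limit.

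Klf7, S1pr1 and Cd69 had 1 weak RARα peak each. For Klf7 it lay 28.5 kb downstream, on chromosome 1 from 64000661 to 64000900, with 20 fragments at 2.87-fold. For S1pr1 it lay 43.6 kb upstream, on chromosome 3 from 115758648 to 115758891, with 17 fragments at 3.02-fold, and S1pr1 was the only gene named for it. For Cd69 it lay 9.25 kb upstream in a TG simple repeat, on chromosome 6 from 129284629 to 129285087, with 18 fragments at 2.73-fold. In the authors' q-values, which adjust for the many positions examined, these 3 peaks and the 9-fragment Klf13 peak did not pass 0.05, while the 3 Klf2 peaks and the other 2 Klf13 peaks did. The IgG level at the 9 peaks was 1.01 to 2.44 times the genome-wide background, with a median of 1.74, compared with a median of 1.07 over the list, and its part in these calls was not tested.

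None of the 9 RARα control peaks had a RARα RA peak within 5 kb, and the nearest one was 1137497 bp away or farther. Across the whole list 89.8% of RARα control peaks lacked one, so the 8 genes were near the rest of the list in this respect. To describe how far the signal could have dropped, the number of fragments needed for a call with RA was computed from the IgG level at each peak, the p-value cutoff of 0.001 and the depth of the RA pool. At the Klf2 peak 9.28 kb downstream, the control density would have given 61.5 fragments with RA and 16 were needed, so that the summit would have reached the needed number at 26.0% of the control density. At the Klf2 peaks 41.4 and 39.5 kb upstream, 27.8 and 34.7 fragments would have been expected, and 11 and 16 were needed. For the Klf13 peak 45.3 kb upstream the values were 24.8 expected and 11 needed.

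The weaker RARα peaks left less room. Their expected numbers were 19.8 for Klf7 against 15 needed, 16.9 for S1pr1 against 13, 17.9 for Cd69 against 15 and 19.8 for the Klf13 peak 34.4 kb upstream against 13. At the remaining Klf13 peak 8.93 fragments were expected and 10 needed, so an equal density would not have been called. In all, 8 of the 9 peaks would have reached the needed number at equal density, compared with 77.3% of the 1052 control peaks of the list that lacked an RA peak. A call also needs a stretch as long as the fragment length, so an absent peak means either fewer fragments or too short a stretch, and these cannot be told apart here. The fragment length was 235 bp for the control pool and 249 bp for the RA pool, and the control peaks at Klf7 (240 bp), S1pr1 (244 bp) and the 9-fragment Klf13 site (236 bp) were shorter than the latter, so these 3 could have gone uncalled with RA at an unchanged signal. Counting error on the control values applies to the expected values as well, and a pileup with RA was not measured where no peak was called.

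**Figure D2:**
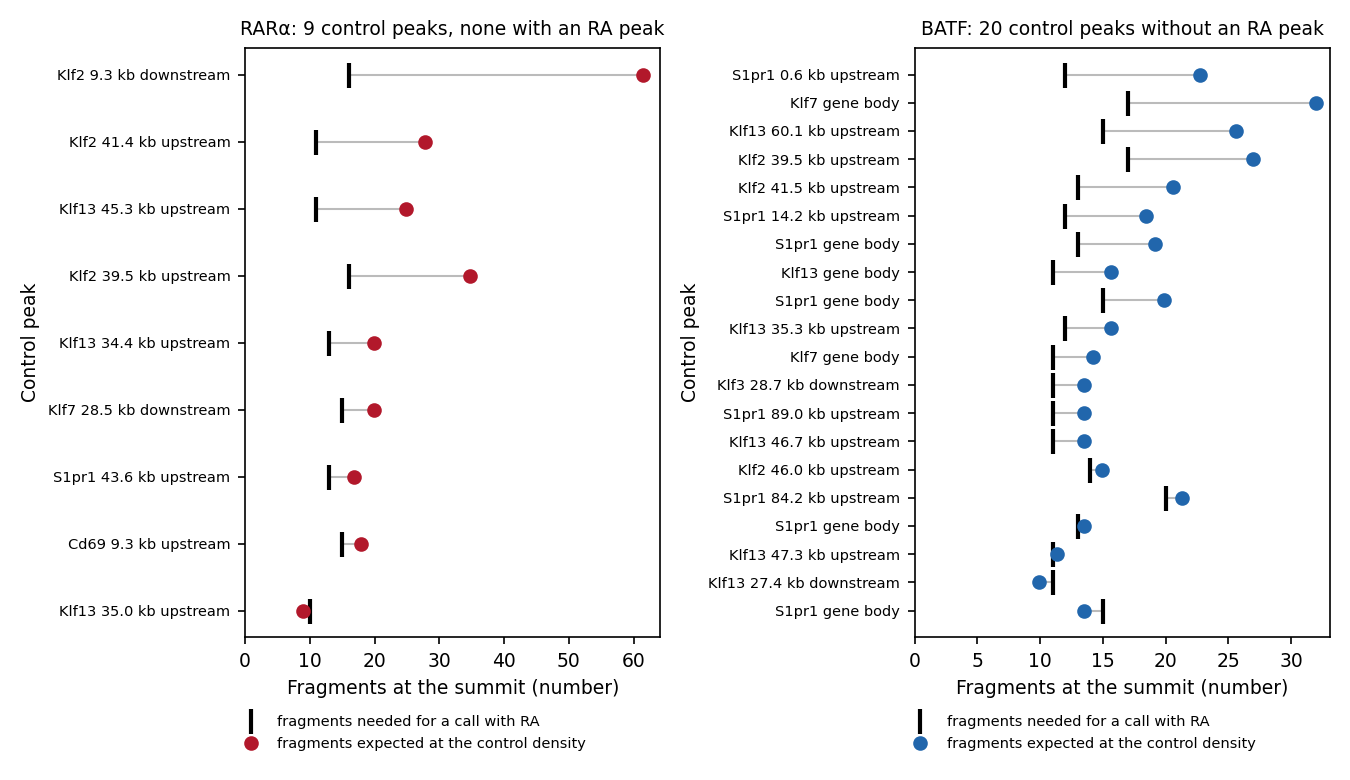
Each row is a control peak without a peak in the RA list within 5 kb, for RARα (left, 9 peaks) and BATF (right, 20 peaks), and the horizontal axis gives fragments at the summit. The point is the number expected with RA at the control density, the bar is the number needed for a call, and the point lies right of the bar for 8 of 9 RARα peaks and 18 of 20 BATF peaks.

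Every one of the 9 RARα peaks had a BATF control peak within 5 kb, and 6 overlapped one. Of all RARα control peaks, 61.9% had one within 5 kb and 53.4% overlapped one. The Wilson interval for 9 of 9 starts at 70.1%. It counts the peaks as independent, although Klf2 and Klf13 gave 3 each and neighbouring peaks can share a BATF peak. No excess over the list can therefore be read from it. The 3 that did not overlap were the Klf13 peaks, and each of those had a BATF peak within 1 kb. Where the peaks overlapped, the summits lay 15, 41 and 180 bp apart at the Klf2 sites 41.4 kb upstream, 39.5 kb upstream and 9.28 kb downstream, 107 bp apart at Klf7, 158 bp at Cd69 and 282 bp at S1pr1. The median over the 6 was 132.5 bp, against 110.5 bp for the 626 overlapping peaks of the list. RARα and BATF pools used the same IgG file, so an error in its level is shared by both.

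The balance of RARα and BATF differed among these sites. At the upstream Klf2 pair RARα and BATF had nearly equal fragment densities, with 1.24 and 1.25 fragments per 1000000 of the pool at the site 41.4 kb upstream and 1.54 and 1.64 at the site 39.5 kb upstream. At the Klf2 site downstream the densities were 2.74 for RARα and 4.76 for BATF. At Klf7 they were 0.883 and 5.84, and at S1pr1 0.750 and 5.71, so that RARα had 0.15 and 0.13 of the BATF density there. At Cd69 they were 0.795 and 1.64. Over all 626 overlapping sites the median RARα to BATF ratio was 0.45, with quartiles at 0.31 and 0.64, so the upstream Klf2 pair lay above the upper quartile and the Klf7 and S1pr1 sites lay below the lower one. The antibodies differ, so these ratios rank sites and do not give relative amounts of protein.

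With RA, a BATF peak within 5 kb was present at 4 of the 9 RARα control sites, compared with 54.3% of all RARα control peaks. These were the Klf2 site downstream and the Klf7, S1pr1 and Cd69 sites. At the upstream Klf2 pair, the nearest BATF RA peaks were 7627 and 5713 bp away. BATF had 29 and 38 control fragments there, 20.6 and 27.0 were expected with RA, and 13 and 17 were needed. The upstream Klf2 pair thus lacked a call for both factors with RA, and the downstream site lacked one for RARα only.

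**Figure D3:**
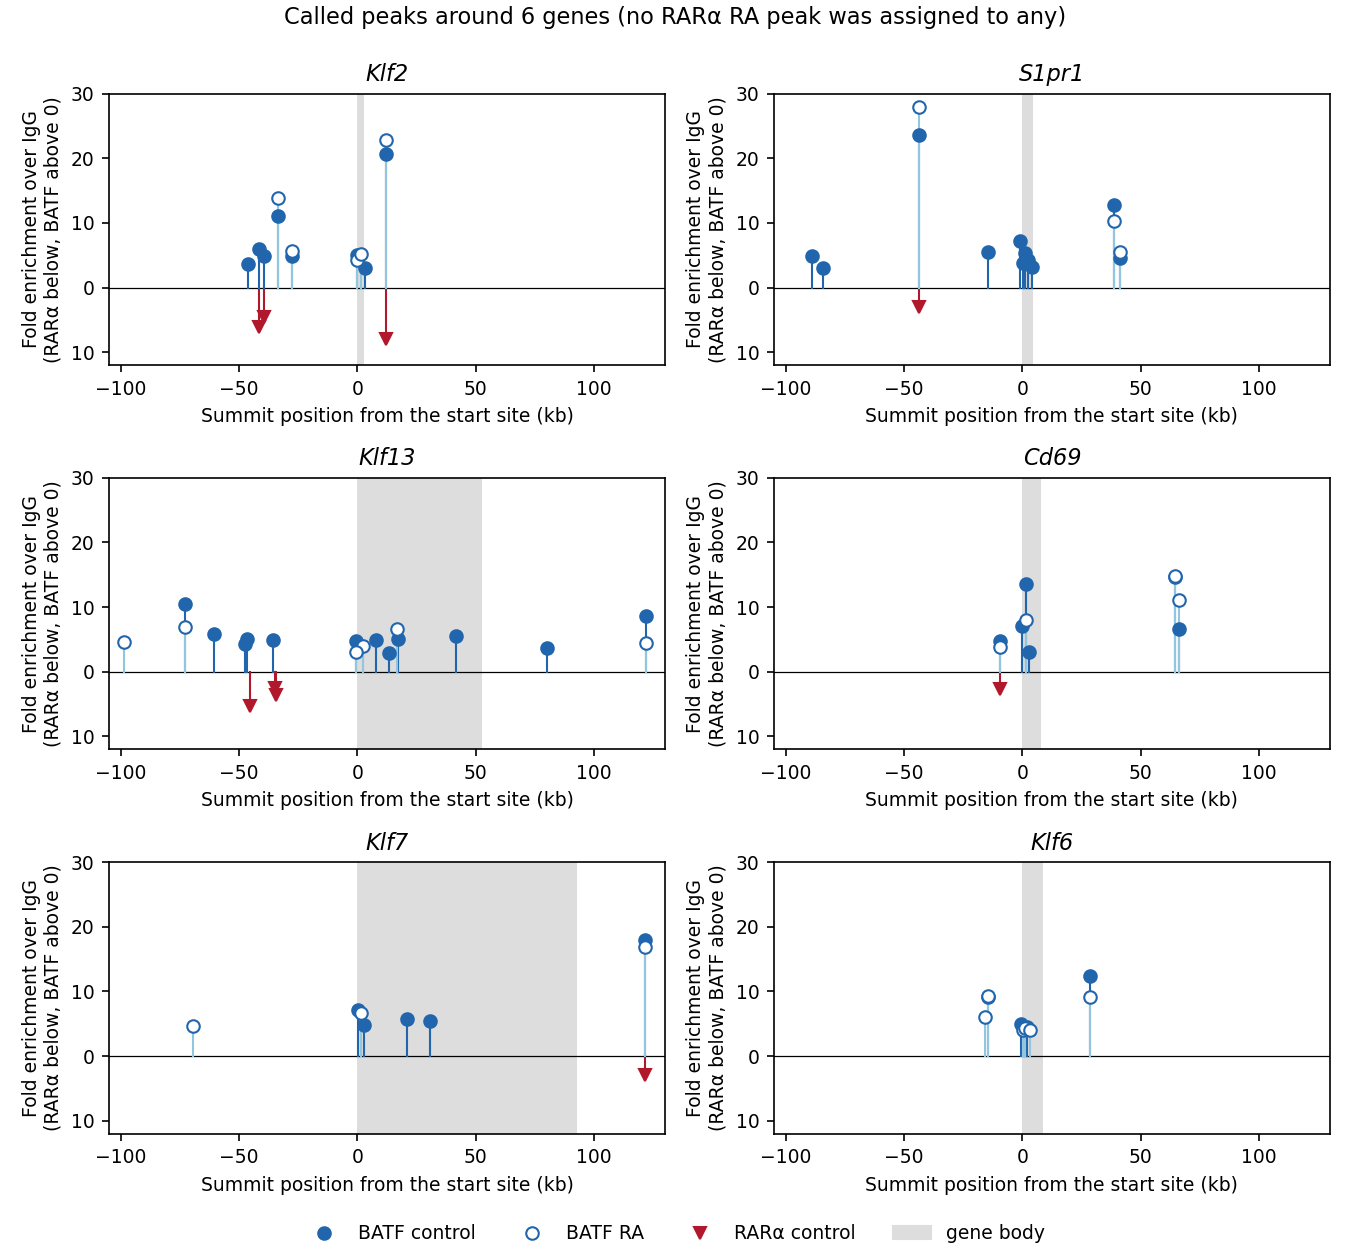
Called peaks around 6 of the 8 genes by position of the summit from the start site in kb (horizontal axis, upstream negative, gene body in grey) and fold enrichment over IgG (vertical axis, BATF above 0 and RARα below). Filled circles are BATF control, open circles BATF RA and triangles RARα control, and the tallest BATF site of Klf2, S1pr1 and Klf7 carries a RARα triangle beneath it.

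By the rule used here, 55.6% of the BATF control peaks of the 8 genes were classed as intergenic, against 18.1% of the whole list. These shares are not alike, because an intergenic peak was counted for each gene named for it. The 26 control peaks named with other genes were all intergenic, and every promoter, exon and intron peak named a single gene. No trait of the 8 genes can therefore be read from their intergenic or promoter share against that of the list. Of the 54 control peaks, 30 were classed as intergenic, 13 as promoter, 10 as intron and 1 as exon. The promoter share was 24.1% (Wilson 95% confidence interval 14.6 to 36.9%), compared with 58.7% of the 15812 peaks of the list. With RA the classes were 20 intergenic, 9 promoter and 3 intron, and the promoter share was 28.1% (15.6 to 45.4%) compared with 64.6% of 9899. Intervals on shares cover counting error only, and peaks of 1 locus share their neighbourhood. The class depends on how far from a gene a peak may be counted, since the share among the 27 control peaks within 10 kb of a gene body was 48.1% (30.7 to 66.0%).

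Of the 54 BATF control peaks, 34 had a BATF RA peak within 5 kb and 20 did not. The share without one was 37.0% (25.4 to 50.4%), and over the whole list it was 30.1%, which lies within that interval. In the other direction, 1 of 32 BATF RA peaks had no control peak within 5 kb, compared with 3.75% of that list. It lay 69.2 kb upstream of Klf7 and had 13 fragments at 4.63-fold. The 20 peaks without an RA peak had a lower fold enrichment, from 3.06 to 7.17 with a median of 4.91, than the 34 with one, whose median was 5.75. At equal density 18 of the 20 would have reached the number needed in the shallower RA pool, compared with 88.1% of the 4764 such peaks of the list.

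S1pr1 accounted for 8 of the 20 and Klf13 for 6, while Klf2 had 3, Klf7 had 2 and Klf3 had 1. Klf4, Klf6 and Cd69 had none. At S1pr1 the 5 control peaks in the gene body and promoter all lacked an RA peak. These ran from the 3' untranslated region of exon 2 to 617 bp upstream of the gene, with 19, 28, 27, 19 and 32 fragments. The expected numbers with RA were 13.5, 19.9, 19.2, 13.5 and 22.7, against 15, 15, 13, 13 and 12 needed. The margin was therefore narrow at the peak with 13.5 expected and 13 needed. The peak in the 3' untranslated region, at 3.15-fold, would not have been called at equal density. The peak 617 bp upstream, at 7.17-fold, was the strongest of the 20 in fold enrichment and its summit would have reached the needed number at 52.8% of its control density. At Klf13 an intron peak, a downstream peak and 4 upstream peaks were without an RA peak, and their control fold enrichment ran from 3.71 to 5.82. At Klf7 the 2 such peaks were in intron 1, with 20 and 45 fragments.

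The strongest BATF site of the 8 genes lay 43.3 kb upstream of S1pr1, on chromosome 3 from 115758323 to 115759207. It had 132 fragments at 23.6-fold in the control and 115 fragments at 27.8-fold with RA, and it ranked 161 of 15812 and 60 of 9899. The ratio of RA to control in fragments per 1000000 of the pool was 1.23, with an exact conditional 95% interval of 0.946 to 1.59 that covers counting error only, and the ratios and intervals of the sites that follow are of the same kind. The interval holds 1, so no difference between the pools was detectable at this depth, and this was also the site of the weak S1pr1 RARα peak. Another S1pr1 site, 34.0 kb downstream, had 53 control fragments at 12.8-fold and 32 with RA at 10.3-fold, a ratio of 0.850 (0.530 to 1.34). The third S1pr1 site with a peak in both lists, 36.3 kb downstream, went from 4.61-fold to 5.44-fold. S1pr1 thus kept 3 distal BATF sites in the RA list and none at the gene itself.

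Klf2 had its strongest BATF site where its strongest RARα peak was. The site 9.30 kb downstream had 110 fragments at 20.6-fold in the control and 90 fragments at 22.8-fold with RA, a ratio of 1.15 (0.861 to 1.54). The summits of both conditions were 1 bp apart. A site 33.4 kb upstream had 42 fragments at 11.0-fold and 41 at 13.9-fold, a ratio of 1.37 (0.871 to 2.16). It had no RARα peak, and Ap1m1 was nearer to it than Klf2 was, at 27713 bp. At the Klf2 promoter a control peak of 2510 bp with 40 fragments at its summit was matched by RA peaks of 674 and 248 bp with 25 and 17 fragments, and the summit near the start site had a ratio of 0.879 (0.511 to 1.49). At none of these Klf2 sites did the interval exclude 1.

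Klf7 had its strongest BATF site 28.3 kb downstream, within an LTR33A repeat, with 135 fragments at 18.0-fold in the control and 92 at 16.9-fold with RA. The ratio was 0.959 (0.728 to 1.26). Cd69 had its strongest site 56.4 kb downstream, with 85 fragments at 14.7-fold and 63 at 14.8-fold, a ratio of 1.04 (0.741 to 1.46). A neighbouring Cd69 site, 57.8 kb downstream, had 39 control fragments at 6.59-fold and 42 with RA at 11.1-fold, a ratio of 1.52 (0.956 to 2.41). Clec2d was the nearest coding gene to both of these sites, at 23584 and 22224 bp. In intron 1 of Cd69, which the authors classed as promoter, 59 fragments at 13.6-fold in the control stood against 30 at 7.99-fold, a ratio of 0.715 (0.445 to 1.13). The Cd69 site with the RARα peak had 38 and 22 BATF fragments, at 4.82-fold and 3.81-fold. Cd69 therefore had values on both sides of 1, and each interval held 1.

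Klf6, an immediate early gene in many cells, had its strongest BATF control site 19.4 kb downstream, with 62 fragments at 12.4-fold and 28 with RA at 9.16-fold. Its ratio of 0.635 (0.391 to 1.01) was the lowest of the matched sites. The strongest Klf6 site with RA lay 14.3 kb upstream, where 92 control fragments at 9.19-fold stood against 69 at 9.36-fold, a ratio of 1.06 (0.761 to 1.46). Klf3 had its strongest site 85.8 kb downstream, with 76 fragments at 9.51-fold and 58 at 9.77-fold, a ratio of 1.07 (0.750 to 1.53). The nearest coding gene to this Klf3 site was Tlr1, at 5353 bp. The single Klf4 site lay 83.4 kb from the gene with Rad23b as the nearest coding gene, and had 42 fragments at 7.08-fold and 35 at 7.83-fold. At Klf13 the strongest site, 72.8 kb upstream, had 43 fragments at 10.6-fold and 21 at 6.96-fold, a ratio of 0.687 (0.387 to 1.18). All 3 matched Klf13 sites had a lower fold with RA, and all 3 intervals held 1.

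At each gene with a BATF control peak in its start region, that peak had a lower fold enrichment than the strongest distal site of the same gene. At the Klf7 start a control peak of 2030 bp with 39 fragments at 7.11-fold overlapped an RA peak of 528 bp with 19 fragments at 6.61-fold, but the control summit lay 246 bp and the RA summit 1664 bp past the start site, so the values are from different positions. At the Klf3 start, 35 fragments at 3.56-fold were found in the control and 20 at 4.50-fold with RA, at summits that were also more than 200 bp apart. At the Klf13 start a control peak of 3877 bp with 61 fragments at 4.71-fold stood against RA peaks of 657 and 2338 bp with 20 and 31 fragments, and the summit of the second lay 29 bp from that of the control. The control peak over the Cd69 start had 42 fragments at 7.04-fold and was not overlapped by an RA peak, the nearest being the intron 1 peak. Klf4 had no peak at the gene itself in any list, and S1pr1 had none there with RA.

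Over all BATF control peaks of the 8 genes with an RA peak within 5 kb, 14 of 34 had a lower fold enrichment with RA when each was set against the RA peak of nearest midpoint, compared with 66.9% of 11048 pairs in the lists. The median RA to control ratio of fold enrichment was 1.06 for the 34 pairs and 0.868 for all pairs. These 34 pairs used 27 different RA peaks, and some joined peaks with summits far apart, so pairs with summits within 200 bp were also examined, a choice made after the values were seen. By that rule 10 of 20 pairs had a lower fold with RA, compared with 76.7% of 7026, and the median ratio was 0.975 for the 8 genes and 0.829 for all pairs. The medians of the ratio in fragments per 1000000 were 1.00 and 0.852. Among pairs with a control fold of at least 10, a lower fold was seen at 5 of 9 for the 8 genes and at 87.1% of 1573 in the lists, and among pairs with an RA fold of at least 10 at 2 of 7 and at 70.6% of 930. Selecting pairs by the value of 1 condition favours a lower value in the other, so neither count shows a direction. Without the 1 added to both parts of the fold, the medians for the 8 genes were 1.18 within 5 kb, 1.08 for overlapping pairs and 1.02 by summits. In fragments per 1000000 of the pool they were 1.01, 0.854 and 1.00. The median of the deposited fold for the 8 genes crossed 1 with the pairing rule, and the side of 1 also depended on the measure. No direction with RA can therefore be given for them, and none of the 20 intervals excluded 1.

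**Figure D4:**
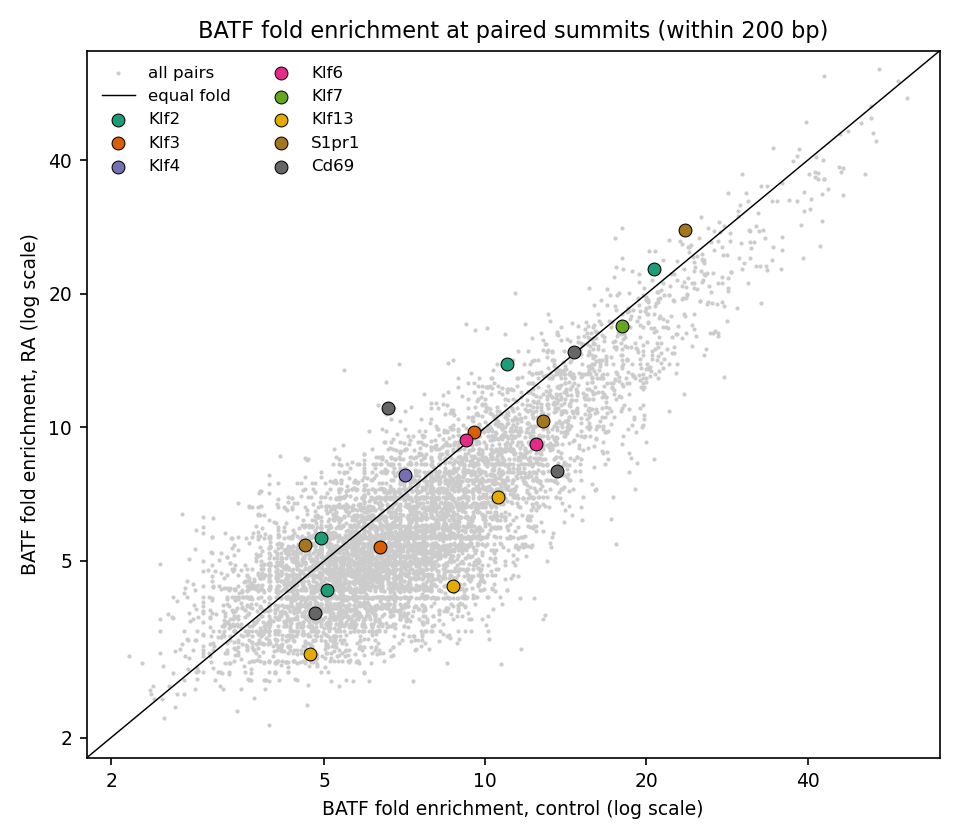
BATF fold enrichment with RA (vertical, log scale) against control (horizontal, log scale) at sites with summits within 200 bp in both lists, with grey points for all 7026 pairs and coloured points for the 20 pairs of the 8 genes. The line marks equal fold, and 10 of the 20 coloured points lie below it, among them all 3 of Klf13.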

How the data were processed

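RARα and BATF ChIP-seq peak lists from mouse CD8 T cells with and without RA were analysed. Per the study's methods and the file headers, the authors aligned paired-end reads with Bowtie2 to mm10 and called peaks with MACS 2.2.7.1 in paired-end mode (effective genome size 1870000000) on 2 pooled files per condition against 1 IgG file. Calls needed a p-value of 0.001 (RARα) or 1e-05 (BATF). Pileup values were deposited as a signal in fragments, which the caller had scaled by 0.988 in the BATF control list alone and which were divided back. The deposited fold enrichment is a ratio to the local IgG level with 1 added to both. The deposited p-values and q-values are on a −log10 scale, and q-values are present although the headers say that none were calculated.

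Peaks were selected by gene name. Gene positions were those of RefSeq on GRCm38.p6, the same assembly as mm10, and at least 99.5% of names in each list matched. Peaks within 5 kb were called shared. The IgG level was recovered from the fold enrichment and scaled by depth to give the fragments needed for a call in the other pool. Where control and RA summits lay within 50 bp, the scaled level was within 1.25-fold of the recovered one at 94.9% of RARα and 88.5% of BATF peaks. Shares have Wilson intervals and density ratios exact conditional (Clopper-Pearson) intervals, both 95% and for counting error only. The genes and lists were chosen with earlier results of these data known. By rule, the text names all 8 genes, every RARα peak and the strongest BATF peak of each gene with its pair, and, of the other lists, genes with a RARα peak and the 3 with the most BATF control peaks. One gene that this rule names is not reported here. Further sites were chosen after their values were seen. Pairing and intervals were tested on simulated data. Alternatives were stricter thresholds, other distances and other assignments. Sequence, motifs and expression were not analysed here. Software was Python 3.11.15 (numpy 2.4.6, pandas 2.3.3, scipy 1.17.1), with figures from matplotlib 3.10.9.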

Additional observations from a re-analysis of the deposited data

How the results depend on the processing

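Of 44 alternative values, 29 stayed on the same side or within the set range, 13 moved and 2 changed direction. The number of RARα control peaks for the 8 genes was 9 as reported, 3 with a fold enrichment of at least 5, 5 with a q-value of at most 0.05, 2 within 10 kb of the gene body and 1 when the gene was the only one named. RARα RA peaks stayed at 0 under each, which these filters could not have changed. BATF control peaks went from 54 to 29 at a fold of at least 5, 27 within 10 kb and 28 when named alone, and BATF RA peaks from 32 to 21, 14 and 17. With at least 1 bp of overlap in place of 5 kb, 44.4% of BATF control peaks had an RA peak (63.0% as reported), against 54.4% over the list. By the same rule 66.7% of RARα peaks had a BATF peak (100% as reported), against 53.4% over the list. The median RA to control fold ratio of 1.06 became 0.977 for overlapping pairs and 0.975 for summits within 200 bp, and the cause was not tested. The promoter share of 24.1% became 48.1% within 10 kb. Counting every peak within 100 kb, an alternative chosen after seeing the data like the summit pairing, gave 10, 0, 65 and 35 peaks. No paired analysis was possible because there was 1 pooled list per condition. Depth limits what the BATF RA list could call at weak sites, and no pileup was available where no peak was called.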

Other observations

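The rest of the KLF family and a list of homing and egress genes gave the surroundings of these values. None of the 11 other KLF genes had a RARα peak in either list, where 7.18% (control) and 3.19% (RA) of all coding genes had one. BATF peaks were assigned to 5 of the 11 in each list, with 14 peaks in the control list and 13 with RA, near the shares of all coding genes (48.6% and 38.2%), and the most were at Klf16 with 5 and at Klf1 and Klf10 with 3 each. Klf10, a factor induced by TGF-β, had 5 with RA.

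Of 16 other homing and egress genes, 6 had a RARα control peak, 7 peaks in all, against 7.18% of all coding genes. The list was chosen with earlier results of these data known, so no test was made. Ccr7, the chemokine receptor for entry into lymph nodes, had 2 intergenic ones, 38926 and 18600 bp from the gene, with 23 and 13 fragments. S1pr5 had 1 intergenic peak at 4.64-fold, 81385 bp from the gene. Foxo1, whose product raises Klf2, had 1 in its promoter at 3.78-fold. Itgb2, the beta chain of the integrin LFA-1, had 1 intergenic peak at 3.69-fold, 9399 bp from the gene. Itgal, the alpha chain of LFA-1, was the only gene of this list with a RARα peak with RA (3.19% of all coding genes). That intergenic peak lay at the same place in both lists, 34840 bp from the gene in the control and 34797 bp with RA. It had 13 fragments at 3.61-fold in the control and 13 at 3.54-fold with RA. BATF control peaks were assigned to 14 of the 16 (48.6% of all coding genes), 74 in all, among them 15 at Ccr7 and 8 at Gnai2. With RA the numbers were 13 of 16 genes (38.2% of all) and 48 peaks, with 11 at Ccr7 and 3 at Gnai2.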
